A study of Rattus norvegicus with 43 samples.

Results

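The immunoproteasome and the genes that feed peptides to MHC class I were followed in 43 anterior pituitaries, each from a male rat that had been given diethylstilbestrol (DES), a synthetic estrogen. The set holds 10 genes: Psme1, Psme2, Psmb8, Psmb9, Psmb10, Tap1, Tap2, Tapbp, B2m and Irf1. They were picked by name after Psme1 had been seen to be lower in these same animals where mitotic genes such as Mki67 were higher. The relation of the set to cell division is therefore how it was chosen and is given below as a description only. All 10 were measured, among 14217 genes with a probe set of their own, by 13 probe sets in all. The animals were COPxACI F2 males, the intercross generation of Copenhagen females and ACI males. A silastic implant of 5 mg DES was placed under the skin at 9 weeks of age, and the animals were sacrificed 12 weeks later, at 21 weeks of age. Each had received bromodeoxyuridine at 50 mg/kg 4 hours before sacrifice. Every animal carried the implant and there was no untreated animal, so no value below is a response to DES. The design text says that animals with the 22 highest and 21 lowest pituitary weights were taken, but no label ties an animal to a weight class, and the 43 animals are treated as 1 group.

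The proteasome cuts intracellular proteins into peptides. Interferon-gamma induces Psmb8, Psmb9 and Psmb10, which encode the catalytic subunits that replace Psmb5, Psmb6 and Psmb7 of the constitutive core, and Psme1 and Psme2, which encode the alpha and beta subunits of the PA28 activator ring that docks on the core. Tap1 and Tap2 form the transporter that carries peptides into the endoplasmic reticulum, Tapbp (tapasin) bridges it to empty class I molecules, and B2m is the light chain of every class I molecule. Irf1 is a transcription factor of the interferon response that binds promoters of several of these genes. The anterior pituitary is made mostly of hormone cells, and its resident macrophages and folliculostellate cells are the cells usually linked with immune functions there.

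The arrays carried the hormone transcripts of the gland: median intensity was 50862.8 for Prl (prolactin), 32530.7 for Gh1 (growth hormone) and 5407.2 for Tshb (the beta chain of thyrotropin). The corticotroph genes Pomc and Tbx19 were dim, with median intensities of 29.2 and 104.4. Animal 43 stood apart: its array had a mean correlation of 0.927 with the others, against 0.967 to 0.976 for the other animals. The 3' minus 5' log2 difference of its actin control probe sets was 1.97, against 1.26 to 1.67. Results that rest on this animal are given with and without it. A second animal, 38, had a proliferation score of -0.86, while the next lowest was -0.32. In whole glands, fewer cells of a type and less RNA per cell cannot be told apart.

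Promoters are shown first for the PA28 pair, whose levels moved together most closely, from RefSeq assembly GRCr8, 250 bases before to 50 bases after the annotated start and in the direction of the gene. Psme1 lies on the plus strand (chr15:33038721-33039020) and Psme2 on the minus strand (chr15:33052702-33053001), with 13780 bases between the starts. Capitals mark the letters GAAA, any 2 bases and GAAA, searched on both strands, a spaced repeat bound by interferon regulatory factors such as IRF1.
Psme1: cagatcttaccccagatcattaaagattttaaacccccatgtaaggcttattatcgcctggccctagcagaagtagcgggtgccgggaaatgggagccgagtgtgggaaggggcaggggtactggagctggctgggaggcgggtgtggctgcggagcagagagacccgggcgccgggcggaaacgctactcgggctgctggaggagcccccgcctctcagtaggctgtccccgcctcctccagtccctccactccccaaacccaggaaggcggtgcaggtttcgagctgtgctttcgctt
Psme2: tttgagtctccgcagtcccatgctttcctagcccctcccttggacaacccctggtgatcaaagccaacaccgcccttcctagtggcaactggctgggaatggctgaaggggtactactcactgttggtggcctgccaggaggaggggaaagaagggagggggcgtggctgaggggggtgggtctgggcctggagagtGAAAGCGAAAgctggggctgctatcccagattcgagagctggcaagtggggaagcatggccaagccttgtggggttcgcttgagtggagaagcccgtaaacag
The repeat was found once in Psme2, 53 bases before the start, and not in Psme1. The Psme1 window ends in tttcgctt, which begins the repeat as read on the opposite strand. Bases beyond the window were not searched. The whole repeat occurred in 7 of the 10 promoters and in 3.92% of 33469 rat promoters of the same length. The members were known interferon targets when they were chosen, so this share is a description. No match in a window says only that these letters are not there, as in Psme1, Psmb9 and Irf1. Tap1 and Psmb9 are transcribed away from each other with 457 bases between their starts, and the Tap1 match lies in that interval.

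The other members with a match are shown as the match nearest to the start with up to 30 bases on each side. Irf1, which had no such repeat, is shown with the letters TTCNNNGAA in capitals, the palindrome bound by STAT factors, searched on both strands and found once before its start. That palindrome was also found in the Psmb8 promoter, 245 bases before the start, and in 8.87% of all promoters. The matches lay 4 bases before the start in Psmb8 (chr20:4656996-4657065), 17 and 73 in Psmb10 (chr19:50743270-50743339), 121 in Tap1 (chr20:4668625-4668694) and 41 in Tap2 (chr20:4652298-4652367). In Tapbp (chr20:4967858-4967927) there were 2 overlapping matches, 26 and 20 bases before the start, and in B2m (chr3:129549150-129549219) there was 1 at 150 bases. The Irf1 stretch is chr10:38417763-38417831. In Psmb8 and Tap1 the repeat reads on the opposite strand.
Psmb8: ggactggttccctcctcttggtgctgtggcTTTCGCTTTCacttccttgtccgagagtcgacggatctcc
Psmb10: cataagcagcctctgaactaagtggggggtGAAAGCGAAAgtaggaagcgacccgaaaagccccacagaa
Tap1: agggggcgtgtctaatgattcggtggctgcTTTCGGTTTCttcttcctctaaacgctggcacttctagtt
Tap2: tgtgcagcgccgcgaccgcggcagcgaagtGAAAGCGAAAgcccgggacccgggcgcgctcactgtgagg
Tapbp: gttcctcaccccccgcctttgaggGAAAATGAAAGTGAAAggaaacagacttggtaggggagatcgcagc
B2m: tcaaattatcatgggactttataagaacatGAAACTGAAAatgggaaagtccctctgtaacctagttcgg
Irf1: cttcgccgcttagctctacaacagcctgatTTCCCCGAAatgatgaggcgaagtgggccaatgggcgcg

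Levels are given as log2(intensity + 16), and levels of different probe sets are not set against each other. The PA28 genes were bright in every animal. Psme1 had a lowest value of 11.97, a median of 12.39 and a highest of 12.88, with a mean of 12.40 ± 0.19 (SD, n = 43), or intensities of 3991.7, 5334.7 and 7522.5. Psme2 had 10.55, 11.06 and 11.43, with a mean of 11.03 ± 0.21 (SD, n = 43), or intensities of 1480.4, 2112.6 and 2738.6. For both genes animal 38 was highest and animal 43 next. The highest animal was 1.88-fold above the lowest for Psme1 and 1.84-fold for Psme2. A second probe set of Psme1 was dim, with a median intensity of 80.8, and its correlation with the first was 0.12.

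The 3 catalytic subunits of the immunoproteasome had larger SDs than the PA28 genes. Psmb9 had 8.07, 8.71 and 9.36, with a mean of 8.73 ± 0.32 (SD, n = 43), and animals 38 and 31 were highest. Psmb8 had 8.16, 8.62 and 9.26, with a mean of 8.61 ± 0.24 (SD, n = 43), and animals 31 and 32 were highest. Psmb10 had 9.84, 10.30 and 11.41, with a mean of 10.32 ± 0.27 (SD, n = 43). Its highest value was that of animal 43, and the next was 10.90. Without animal 43 the SD of Psmb10 was 0.22. Set against the 200 probe sets nearest in mean level, the SD of Psmb9 stood at percentile 82.5, that of Psmb8 at 54.5 and that of Psmb10 at 84.5. Those of Psme1 and Psme2 stood at 59.5 and 69.5, both above Psmb8. These percentiles are descriptions.

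Among the transport and loading genes, Tap1 and Tap2 had their lowest value in the same animal. Tap1 had 7.67, 8.61 and 9.20, with a mean of 8.58 ± 0.23 (SD, n = 43). Its lowest value was that of animal 22, and the next lowest was 8.30. A second Tap1 probe set had a median intensity of 10.3 and a correlation of -0.15 with the first. Tap2 had 5.00, 6.51 and 7.31, with a median intensity of 74.9, and its lowest value too was that of animal 22. Its mean log2 of 6.48 was under the 7.16 that a probe set needed to enter the tests, so Tap2 has values here but no test, and 9 of the 10 members were tested. Tapbp was the member with the smallest SD, at 10.37, 10.88 and 11.34 with a mean of 10.89 ± 0.17 (SD, n = 43). Its highest animal was 1.97-fold above its lowest, more than for Psme1 or Psme2. With quantile normalization B2m had a smaller SD than Tapbp, 0.15 against 0.17. The 2 lowest animals of Tapbp were 43 and 38, the same 2 that were highest for Psme1 and Psme2.

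B2m was bright throughout, with 14.03, 14.36 and 15.29 and a mean of 14.35 ± 0.21 (SD, n = 43). The highest value was that of animal 43 and the next was 14.70. Without animal 43 the SD was 0.16. A second B2m probe set had a correlation of 0.73 with the first. Irf1 had 8.37, 8.82 and 9.43, with a mean of 8.84 ± 0.26 (SD, n = 43), and animal 43 was lowest. The plot of levels by animal number shows animals 38 and 43 at opposite ends for different members.

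**Figure D1:**
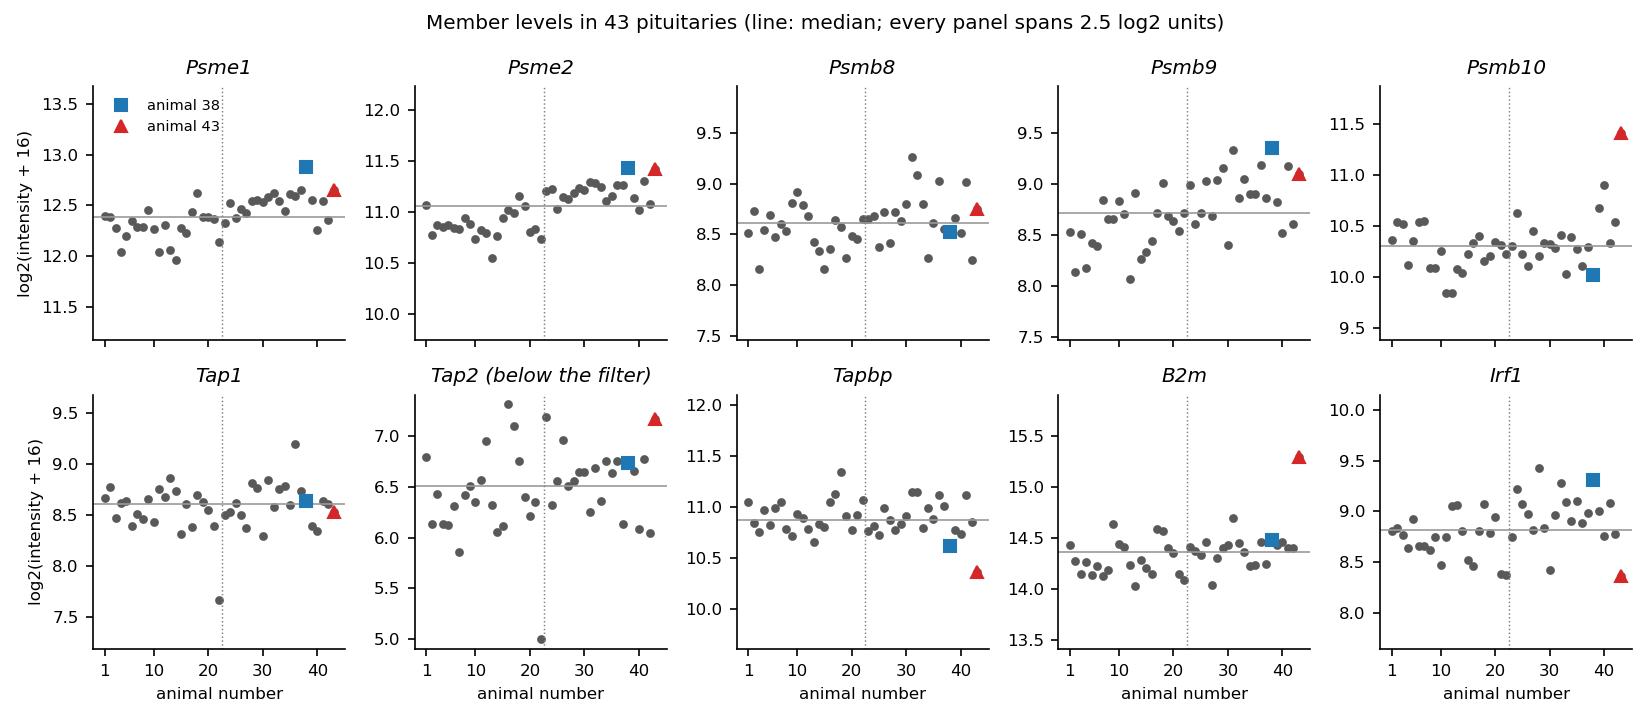
Level of each member, log2(intensity + 16), against animal number in 43 pituitaries, 1 point an animal; the grey line is the median and every panel spans the same range. Animal 38 (square) was highest for Psme1, Psme2 and Psmb9, animal 43 (triangle) was highest for Psmb10 and B2m and lowest for Tapbp and Irf1, and the dotted line lies between animals 22 and 23.

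The numbers of the animals bear on some members. Of the 10 highest Psme2 values, 10 belonged to animals numbered 23 to 43, and of the 10 lowest, 10 belonged to animals 1 to 22. Both counts were 9 for Psme1 and Psmb9, and 4 for Tapbp. The same counts were not made over all probe sets. Whether these members differ from other genes in this respect was therefore not tested. The labels give no meaning to the numbers, and no weight class is read from them. Correlations between members are therefore also given within animals 1 to 22 and within animals 23 to 43. What makes the numbers matter was not tested.

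Members did not move as 1 block. Over the 36 pairs of the 9 members past the brightness filter, the median Pearson r was 0.24, with a range of -0.27 to 0.83, and 30 were above 0. The closest pair was the 2 subunits of PA28: Psme1 and Psme2 had r = 0.83 and Spearman rho = 0.84 over 43 animals (permutation p = 1e-05 for each, 2-sided, the smallest that 100000 permutations can give). Without the 2 animals farthest from the median of Psme1, animals 38 and 14, r was 0.82. It was 0.59 within animals 1 to 22 and 0.83 within animals 23 to 43. With the proliferation score removed from both it was 0.73. Among 9406 genes ranked by their correlation with Psme1, Psme2 had rank 2.

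**Figure D2:**
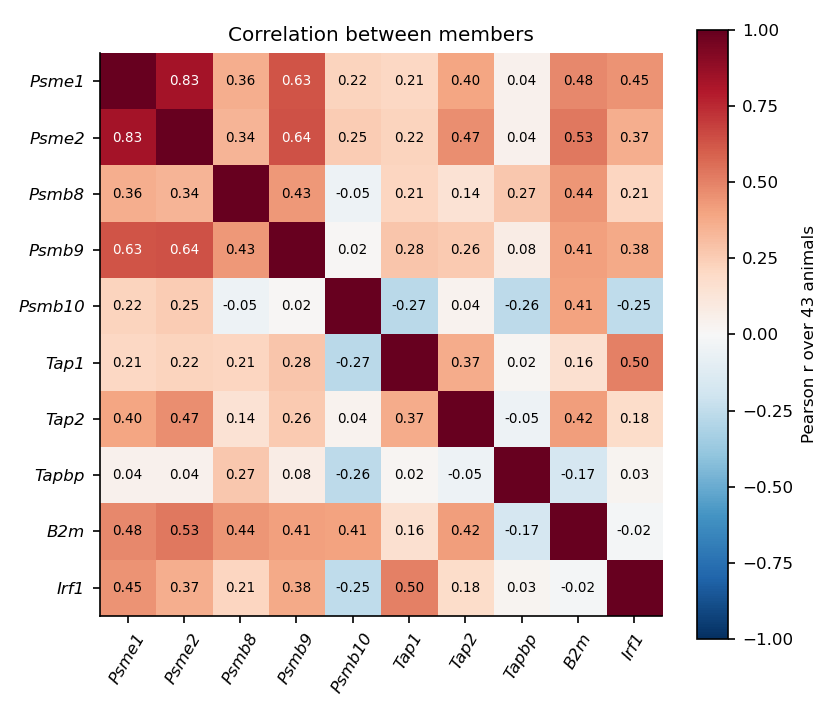
Pearson correlation between every 2 members over 43 animals, colour and number giving r. Psme1 and Psme2 had the highest value, 0.83, and Psmb10 and Tap1 the lowest, -0.27.

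Over all 43 animals, Psmb9 had higher correlations with the PA28 genes than with Psmb8 or Tap1, its neighbours on chromosome 20. Its r was 0.63 with Psme1 and 0.64 with Psme2, and 0.43 with Psmb8 and 0.28 with Tap1. The correlation of Psme2 and Psmb9 was 0.09 within animals 1 to 22 and 0.65 within animals 23 to 43. That of Psme1 and Psmb9 was 0.25 and 0.58. For Psmb8 and Psmb9 it was 0.16 and 0.46, and for Tap1 and Psmb9 -0.12 and 0.63. The order of these genes was thus not the same within the ranges. With the step between animals 22 and 23 removed, r with Psmb9 was 0.34 for Psme2, 0.40 for Psme1, 0.33 for Psmb8 and 0.22 for Tap1. The differences between pairs and between ranges were not tested. Over all 43 animals Irf1 was most closely followed by Tap1 among the members, with r = 0.50 and rho = 0.52 (permutation p = 0.00034 and 0.00036, 2-sided). This r was 0.50 without animals 22 and 36, and 0.66 and 0.32 in the lower and higher ranges of numbers. Psme1 and Irf1 had r = 0.45 and rho = 0.52. Without animal 43, which was lowest for Irf1, r with Irf1 was 0.54 for Psme1 and 0.52 for Tap1. With quantile normalization it was 0.50 and 0.47, so Tap1 was not the closest member in either. The permutation p-values are for single pairs, out of 45 computed, and the members were chosen with earlier results known.

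Psmb10 had low or negative correlations with the other interferon-induced catalytic subunits and with Tap1. Its r with Psmb8 was -0.05, with Psmb9 0.02 and with Tap1 -0.27. With Psme1 and Psme2 it was 0.22 and 0.25, near the median of all pairs, and 0.12 and 0.10 without animal 43. Its correlation of 0.41 with B2m (permutation p = 0.0165, 2-sided) rested on animal 43: without that animal r was -0.04, and rho over all animals was -0.02. The transporter genes Tap1 and Tap2 had r = 0.37 and rho = 0.11, and without the 2 animals farthest from the Tap1 median, 22 and 36, r was -0.03.

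**Figure D3:**
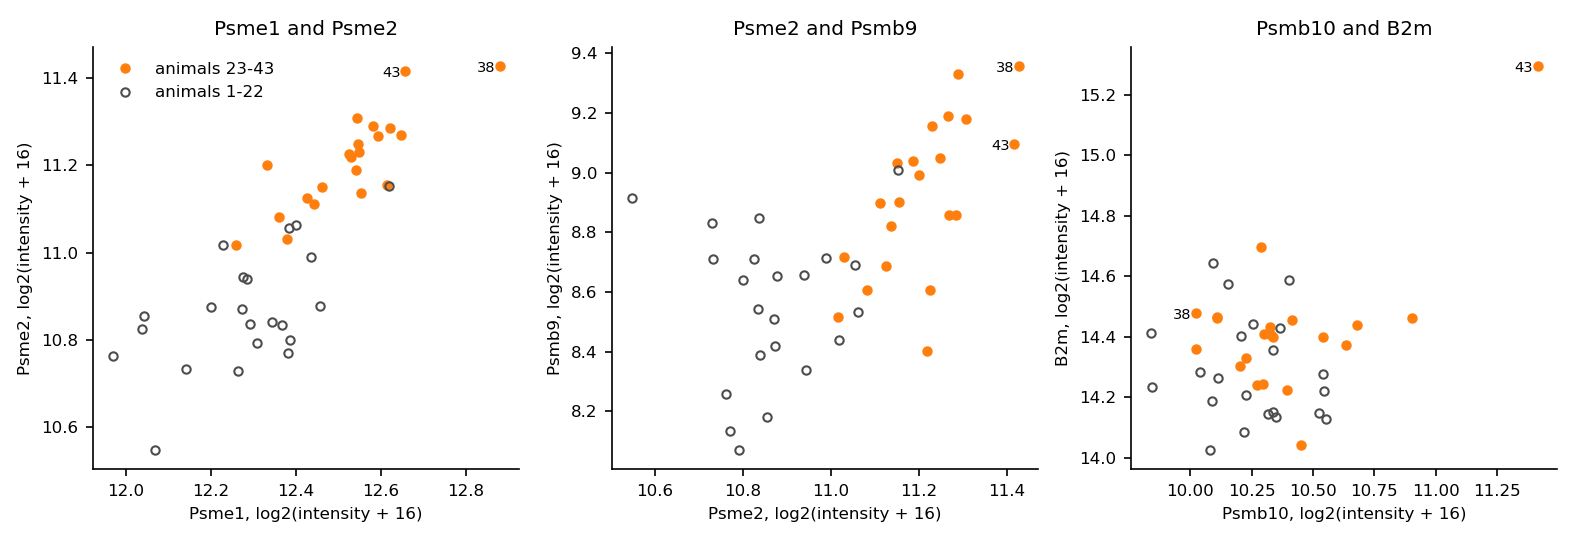
Levels of 3 pairs of members, log2(intensity + 16) on both axes, 1 point an animal, filled for animals 23 to 43 and open for animals 1 to 22. Psme1 and Psme2 rise together in both ranges (r = 0.83 and 0.59), Psme2 and Psmb9 do so in the filled points (r = 0.65 and 0.09), and Psmb10 and B2m have r = 0.41 with animal 43 and -0.04 without it.

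A comparison that the choice of members did not use asked whether members were higher in animals with more interferon-response RNA. The interferon score was the mean centred log2 value of 18 interferon-induced genes, such as Mx1, Isg15 and Rsad2, none of them a member. Psmb9 was higher with the score, by 0.75 ± 0.17 (SE) log2 units per unit of score (limma, adjusted p = 0.0154, n = 43). It was the 1 member of 9 tested that passed the adjusted threshold of 0.05, while 48 of 15500 probe sets, 0.31%, passed in either direction, 0.271% higher and 0.0387% lower. Psmb8 had a slope of 0.54 ± 0.13 (limma adjusted p = 0.0619), B2m 0.39 ± 0.13 (adjusted p = 0.377), Psme2 0.32 ± 0.13 (adjusted p = 0.606) and Tapbp 0.27 ± 0.11 (adjusted p = 0.631). Animal 43 was lowest for Tapbp, and r of Tapbp with the score was 0.36 with that animal and 0.57 without it. For Psmb9 it was 0.57 and 0.55, for B2m 0.43 and 0.36 and for Psme2 0.37 and 0.32. Without animal 43, Psmb9 was still the only member past the threshold. Irf1 itself had a slope of 0.02 ± 0.17 (adjusted p = 0.987). The median slope was 0.27 over the 9 members and -0.02 over all probe sets.

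The interferon score was carried by few animals. It was 0.63 in animal 31, 0.58 in animals 36 and 41 and 0.39 in animal 43, and 0.24 in the next animal. Counted from the highest, animals 31, 36, 41 and 43 had ranks 2, 3, 4 and 6 for Psmb9 and ranks 1, 3, 4 and 10 for Psmb8. Without animal 31, 36 or 41 the adjusted p of Psmb9 in limma was 0.102, 0.0618 and 0.0519, so the call rests on each of them. Without these 3 animals together the slope was 0.67 ± 0.24 and the adjusted p 0.527, and no probe set passed in limma, with 1417 at an unadjusted p under 0.05. On ranks in place of values the adjusted p was 0.589. Within animals 1 to 22 the slope of Psmb9 was 0.89 ± 0.25 and within animals 23 to 43 it was 0.52 ± 0.18, neither past the threshold in limma (adjusted p = 0.595 and 0.737).

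**Figure D4:**
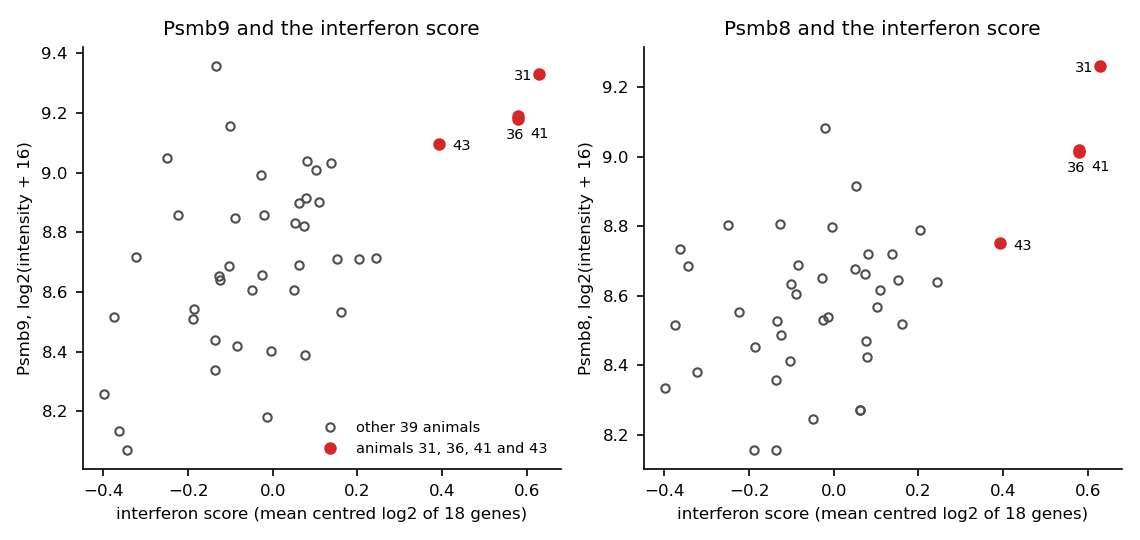
Level of Psmb9 (left) and Psmb8 (right), log2(intensity + 16), against the interferon score, the mean centred log2 value of 18 genes, 1 point an animal. Animals 31, 36, 41 and 43 (filled) have scores of 0.39 to 0.63 while the other 39 animals end at 0.24, and animal 31 is highest for Psmb8 at 9.26.

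The genes of MHC class II stood out in the same fit. Of 7 tested, 5 were higher with the interferon score and 2 did not pass: Cd74 (the invariant chain) had a slope of 1.19 ± 0.25 (limma adjusted p = 0.0107) and RT1-Da (a class II alpha chain) one of 1.35 ± 0.24 (adjusted p = 0.000799). Of 7 class I heavy chains 1 passed, RT1-S3, at 0.63 ± 0.11 (adjusted p = 0.00134), and of 13 macrophage genes 1 passed, Lyz2 (lysozyme), at 1.52 ± 0.21 (adjusted p = 3.37e-05). None of 13 constitutive core subunits and none of 21 genes listed for the regulatory cap passed in limma. Of these, 3 and 1 had an unadjusted p under 0.05, as did 5 of the 9 members and 1126 of all 15500 probe sets. The median slopes of the core and the cap were 0.27 and 0.03. With all 43 animals, the median of the constitutive core was thus as large as that of the members. That median was not taken without animal 43. The mean centred log2 value of the core genes was 1.02 in animal 43 and 0.36 in the next animal. Class I and class II genes are families with near-identical members and differ between rat strains, so a probe set may not stand for 1 gene alone.

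Irf1 served as the predictor in a second fit, which asked which members were higher where this transcription factor was higher. Tap1 was higher, by 0.44 ± 0.12 (SE) log2 units per log2 unit of Irf1 (limma adjusted p = 0.0477, n = 43). It was the 1 member of 8 tested past the threshold, where 1.2% of 15520 probe sets passed in either direction, 0.966% higher and 0.232% lower (0.361% and 0.155% with quantile normalization). Psmb9 had a slope of 0.46 ± 0.17 (adjusted p = 0.149), Psme1 0.33 ± 0.11 (adjusted p = 0.0907) and Psme2 0.30 ± 0.12 (adjusted p = 0.181), while Tapbp and B2m had 0.02 ± 0.11 and -0.02 ± 0.13 (adjusted p = 0.961 and 0.968). Psmb10 had a slope of -0.27 ± 0.16 (adjusted p = 0.408). The r with Irf1 was -0.02 for B2m, -0.25 for Psmb10 and 0.03 for Tapbp. Without animal 43 these were 0.25, -0.10 and -0.13. The median slope was 0.25 over the 8 members and 0.03 over all probe sets.

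The Tap1 call lay at the threshold. Leaving out 1 animal ended it for 30 of the 43 animals, with slopes of 0.31 to 0.48, and it was also lost with the step between animals 22 and 23 as a term (0.46 ± 0.13, adjusted p = 0.228), where no probe set passed and 1924 had an unadjusted p under 0.05. Without animal 43, which was lowest for Irf1, 4 members passed, Psme1, Psme2, Psmb9 and Tap1, as did 742 probe sets, against 186 with it. Without animal 13 or 30, Psme1 passed beside Tap1, and without animal 38 no member and 56 probe sets passed. Of the 18 interferon-response genes none passed in the Irf1 fit (limma), 2 had an unadjusted p under 0.05, and their median slope was 0.02.

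**Figure D5:**
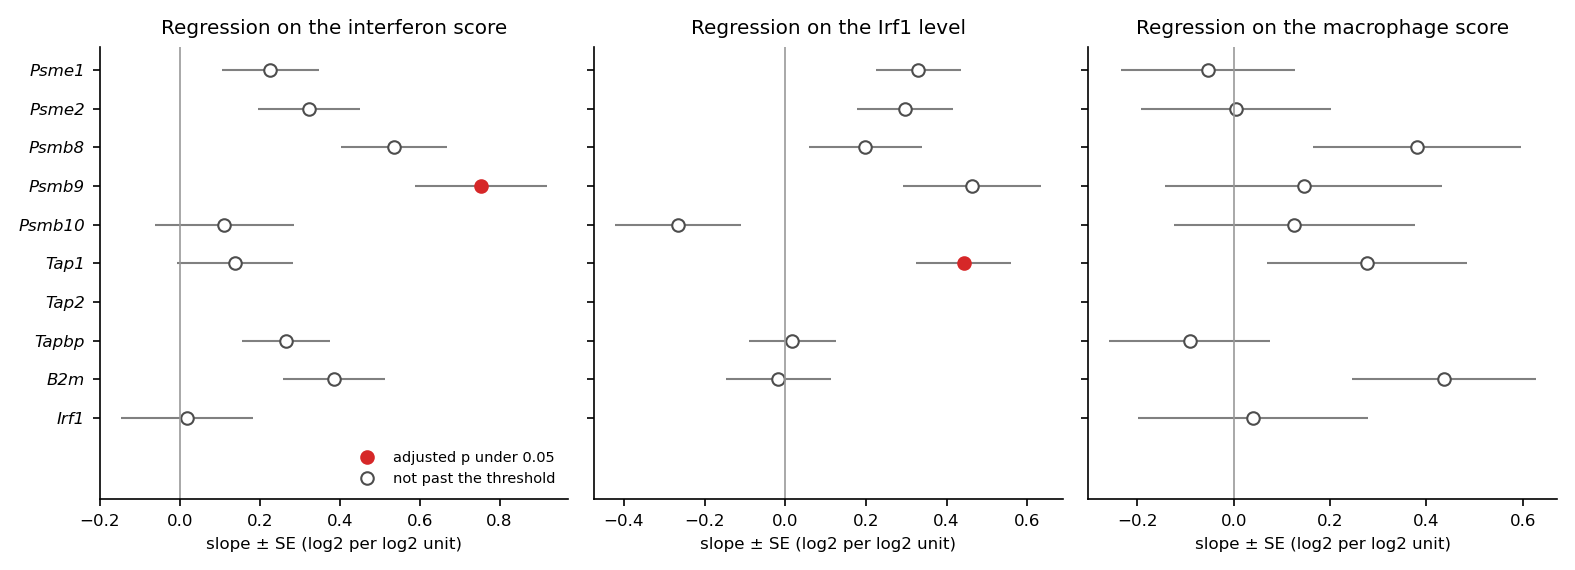
Slope of each member with its standard error in the fits on the interferon score (left), the Irf1 level (middle) and the macrophage score (right), in log2 units per unit of the predictor, n = 43 animals. Filled points passed an adjusted p of 0.05: Psmb9 on the interferon score (0.75) and Tap1 on Irf1 (0.44), and Tap2 has no point because it was below the brightness filter.

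Cells of the immune system also express these genes, and their markers were fitted as a score of their own. Of 15 macrophage markers 13 passed the filter, among them Csf1r (the receptor that macrophages need to survive), Cd68 and Aif1, and their summed intensity over all 15 ran between 15701.9 and 27207.6. None of the 9 members passed in the regression on the macrophage score (limma), where 13 of 15507 probe sets, 0.0838%, passed (0.0709% higher and 0.0129% lower, or 0.155% and 0.0709% with quantile normalization) and 1322 had an unadjusted p under 0.05. Of the members, 1 had an unadjusted p under 0.05. The largest slopes were those of B2m, 0.44 ± 0.19 (SE, adjusted p = 0.514), and Psmb8, 0.38 ± 0.22 (adjusted p = 0.645). Psme1 and Psme2 had -0.05 ± 0.18 and 0.01 ± 0.20 (adjusted p = 0.960 and 0.995). Of 13 genes of T, B and NK cells 12 were under the filter, including Cd3d, Cd3e, Cd8a and Ms4a1 with median intensities of 45.8, 46.6, 14.6 and 11.5, and the sum over the 13 was between 466.5 and 1007.1. Cd4, which rat macrophages also express, was the exception at 309.6.

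Set against the constitutive proteasome, Psmb10 had the highest median correlation with the core among the members. Its r with 13 constitutive core genes had a median of 0.67 and a range of 0.34 to 0.83, and Psma5 (an alpha ring subunit) was closest. Without animal 43 the median was 0.55. B2m had a median r of 0.60 with the same genes, and 0.28 without animal 43. The score of the constitutive core was 1.02 in animal 43, and 0.36 in the next animal. Psmb10 had r = 0.77 with Psmb7, the subunit it replaces (0.58 without animal 43), whereas Psmb8 had r = -0.14 with Psmb5, the subunit it replaces. Psmb6 had no probe set of its own. The median r with the core was 0.50 for Psme2, 0.36 for Psme1, 0.27 for Psmb9 and 0.14 for Psmb8, and -0.12 for Tap1. Psmb10 was also the member closest to the 3' minus 5' difference of actin, with r = 0.75, and 0.57 without animal 43. The part of RNA quality in its pattern was not tested.

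The regulatory cap, a separate complex that unfolds proteins for the core, had lower medians and a wider range. Over the 21 genes listed for it the median r was -0.16 with Psmb10, with a range of -0.70 to 0.71. It was 0.06 with Psme2 and 0.03 with Psme1. Without animal 43 the medians were -0.08, with a range of -0.47 to 0.52, for Psmb10, 0.12 for Psme2 and 0.11 for Psme1. Of the genes in this list, Psmd10 (gankyrin) was closest to Psmb10 and to both PA28 genes. Its r was 0.71 for Psmb10 (0.52 without animal 43), 0.55 for Psme1 and 0.59 for Psme2. Among other proteasome regulators, Psme4, which encodes the alternative activator PA200, had r = -0.51 with Psme1 and -0.40 with Psme2. The assembly chaperone Psmg1 had r = -0.49 with Psme1 and -0.60 with Psme2. The chaperone Pomp, which matures new core particles, had r = 0.73 with Psmb10 (0.48 without animal 43). These are descriptions over 43 animals that share the array scaling.

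The genes whose patterns were most like each member give the company they kept, by r over 43 animals. Psme1 and Psme2 shared Tiparp, a target of the aryl hydrocarbon receptor, with r = 0.84 and 0.87, and Psme2 was closest to Gyg1 (glycogenin) at 0.88. Tshb had rank 5 for Psme1, at r = 0.77. Psmb9 was closest to the interferon-induced Sp110 at r = 0.84, which held at 0.65 within animals 1 to 22 and 0.86 within animals 23 to 43. It also had r = 0.75 with a probe set of the class I gene RT1-CE5, while the brighter probe set of that gene had r = 0.01. Psmb8 was closest to Msn (moesin) at 0.64, followed by Trim34 and Parp14, 2 interferon-induced genes, at 0.58 and 0.57, and by Lyz2 and RT1-S3. The RT1-S3 value, 0.55, was that of 1 probe set, while the brighter probe set of that gene had r = 0.30 with Psmb8.

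Other members kept other company. B2m was closest to Cd53, a tetraspanin of white blood cells, at r = 0.83, and 0.69 without animal 43. Tapbp was closest to Lman2, Ube2j1, Tmed10 and Arcn1, genes of transport and quality control between endoplasmic reticulum and Golgi, with r = 0.70, 0.64, 0.62 and 0.60, which were 0.60, 0.50, 0.46 and 0.49 without animal 43. Psmb10 was closest to C18h18orf32, Ss18l2 and Selenok at 0.87, 0.86 and 0.86, which were 0.78, 0.77 and 0.76 without animal 43. Irf1 was closest to F11r (a tight-junction protein) at 0.69 and to Clu (clusterin) at 0.65. Tap1 had no gene above 0.58.

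Some genes of hormone cells had high correlations with the PA28 pair and with Psmb9, and others of the same lists did not. Fshb and Cga, the beta chain of follitropin and the alpha chain shared by glycoprotein hormones, had r = 0.83 and 0.83 with Psme2, 0.72 and 0.74 with Psme1 and 0.62 and 0.66 with Psmb9. Gnrhr and Nr5a1, also of the gonadotroph list, had r = 0.68 and 0.73 with Psme2, 0.55 and 0.58 with Psme1 and 0.61 and 0.60 with Psmb9. Lhb, the beta chain of lutropin, was the lowest of the 5 gonadotroph genes for each of these members. It had r = 0.34 with Psme2, 0.23 with Psme1 and 0.34 with Psmb9. Of the thyrotroph genes, Tshb had r = 0.79 with Psme2, and Trhr, the receptor for thyrotropin-releasing hormone, had 0.36. The gonadotroph score had r = 0.82 with Psme2, but 0.16 within animals 1 to 22 and 0.60 within animals 23 to 43. The thyrotroph score had r = 0.78 with Psme2 and 0.76 with Psme1, and in the lower and higher ranges of numbers it was 0.14 and 0.74 for Psme2 and 0.32 and 0.79 for Psme1. The endothelial score had r = 0.73 with Psme2 (0.03 and 0.56 in these ranges). The somatotroph score had r = 0.61 with Psme2, but -0.04 and -0.08 within the ranges, and the lactotroph score 0.41, but 0.06 and 0.10. The folliculostellate score had r = 0.60 with Psmb9 (0.32 and 0.52), 0.56 with Psme1 (0.19 and 0.48) and 0.54 with Psme2 (0.00 and 0.37). Tapbp had r = -0.05 with the gonadotroph score and -0.24 with the thyrotroph score, and 0.05 and -0.10 without animal 43. The part of cell type shares in these values was not tested.

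Cell division is the relation by which the set was picked, so its values describe the choice. The proliferation score was the mean centred log2 value of 31 genes of cell division, of which some act in mitosis, such as Mki67 and Plk1, and others in DNA replication, such as Mcm2 and Pcna. The slope on it was -0.72 ± 0.11 (SE) for Psme1, -0.64 ± 0.14 for Psme2 and -0.65 ± 0.23 for Psmb9. It was -0.33 ± 0.16 for B2m, -0.32 ± 0.20 for Irf1 and -0.30 ± 0.21 for Psmb10. It was -0.12 ± 0.18 for Tap1, -0.06 ± 0.19 for Psmb8 and 0.18 ± 0.14 for Tapbp. The r with the score was -0.74 for Psme1, -0.59 for Psme2 and -0.40 for Psmb9, and -0.70, -0.56 and -0.27 without animal 38. For B2m, Irf1 and Psmb10 it was -0.30, -0.24 and -0.21, and -0.33, -0.07 and -0.46 without animal 38. The r with Mki67 was -0.76 for Psme1, -0.60 for Psme2 and 0.14 for Tapbp. Of 15485 probe sets 8.6% passed the threshold, 4.59% higher and 4.01% lower with the score, and 2 of 9 members, Psme1 and Psme2, were among the lower ones. With array medians subtracted the split was 7.18% higher and 2.62% lower, and with the step between animals 22 and 23 as a term it was 0.775% and 0.245%. Without animal 38 it was 2.72% and 2.58%, and 3 of 9 members passed, Psme1, Psme2 and Psmb10. Nothing is read from these counts. With the step between animals 22 and 23 as a term the slope was -0.55 ± 0.11 for Psme1 and -0.32 ± 0.11 for Psme2.

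The genes beside the members on their chromosomes were compared with them, since 5 members lie on chromosome 20 and 2 on chromosome 15. Psme1 and Psme2 have 1 gene between them, Emc9, whose r was 0.18 with Psme1 and 0.35 with Psme2, below the 0.83 of the pair. The flanking Fitm1 and Rnf31 had r of 0.24 and 0.17 with Psme1, and Irf9, beyond Psme2, had 0.17 with Psme2. Pck2, near Psme1, had r = -0.48 with it, and Ipo4, near Psme2, had -0.50 with it. On chromosome 20, Psmb8, Tap1 and Psmb9 are adjacent, and the class II gene RT1-Bb a few genes away had r = 0.53 with Psmb9, 0.46 with Psmb8 and 0.24 with Tap1. RT1-DMb, next to Psmb9, had r = 0.50 with it and 0.42 with Tap1. Pfdn6 and Kifc1, near Tapbp, had r = 0.44 and 0.41 with it. Psmb10 on chromosome 19, B2m on chromosome 3 and Irf1 on chromosome 10 had no neighbour with r above 0.31 among the 6 examined for each, and the lowest was Slc12a4 beside Psmb10, at -0.48.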

How the data were processed

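Anterior pituitary RNA of 43 animals was hybridised to 1 array each. The authors deposited 1 linear intensity per probe set, scaled by them: after trimming 2% at each end, the mean of every array lay between 500.17 and 500.22. The sources used here do not name the software. The deposited scaling was kept and log2(intensity + 16) was taken, which understates changes of dim probe sets. Precision is limited by how many arrays there are. Of 31099 probe sets 57 were controls. Names came from the platform annotation, only where it gave 1 symbol (20826 probe sets), and the probe set with the highest mean represented a gene. Tests covered the 15521 probe sets whose mean log2 exceeded 7.16, the median of these means. Each was regressed on a score or on Irf1 with limma 3.58.1 in R 4.3.3 (lmFit, eBayes), with Benjamini-Hochberg adjustment over all probe sets tested and a threshold of 0.05. A score's own genes were left out of its fit. Slopes have standard errors. The fit was tested on simulated data. Correlations used Python 3.11.15, numpy 2.4.6 and scipy 1.17.1, with 100000 permutations where a p is given. Promoters came from RefSeq (GRCr8), matched by gene identifier for all 10 members. The named genes were the members, the genes of the fixed lists, the 5 genes most correlated with each member and the 3 nearest genes on each side that passed the filter. Alternatives covered the pseudocount, filter, scaling, probe sets, animals, animal numbers, array quality, proliferation and ranks. The members and lists were chosen with earlier results of these data known. P-values measure the spread between these animals. Genotypes were not used here. The study given for reading describes other animals, so no method for these arrays was taken from it.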

Additional observations from a re-analysis of the deposited data

How the results depend on the processing

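The call of Psmb9 on the interferon score kept its direction under all alternatives that tested it. For that fit, 48 probe sets and 1 member passed. The counts were 18 and 0 with a filter at the 75th percentile, where Psmb8 and Psmb9 were not tested, 0 and 0 within animals 1 to 22, 17 and 0 within animals 23 to 43, and 0 and 0 on ranks. Chosen after seeing the data, leaving out animals 31, 36 and 41 together gave 0 and 0, and leaving out animal 43 as well gave 1 and 0. A pseudocount of 64 and quantile normalization gave 2 members, Psmb8 and Psmb9. Leaving out each animal in turn, also chosen after seeing the data, gave 31 (animal 36) to 58 probe sets and 0 to 2 members. For Irf1, 186 probe sets and 1 member passed. The counts were 200 and 0 with a pseudocount of 64, 45 and 0 without a filter, 122 and 0 at the 75th percentile, 80 and 0 with quantile normalization, 21 and 0 with array medians subtracted, 147 and 0 with probe sets of a gene averaged, 0 and 0 with the step between animals 22 and 23, 1 and 0 with a spline over animal number, 0 and 0 within animals 1 to 22, 1 and 0 within animals 23 to 43, 49 and 0 with the proliferation score, 696 and 3 with array quality terms and 273 and 2 on ranks. Leaving out 1 animal gave 56 to 742 probe sets and 0 to 4 members, and moved the count by over 1.5 times for animals 7, 13, 15, 16, 25, 28, 30, 32, 33, 35, 38 and 43. For the macrophage score, 13 probe sets and 0 members passed. The counts of probe sets were 20 with a pseudocount of 64, 7 without a filter, 35 with quantile normalization, 29 with array medians subtracted, 42 with the step, 22 with the spline, 22 with the proliferation score, 38 with array quality terms, 0 within animals 23 to 43, 2 on ranks and 4 to 33 when 1 animal was left out (moved by over 1.5 times for animals 2, 8, 11, 14, 25, 34, 42 and 43), all with 0 members, and 653 with 1 member, B2m, at the 75th percentile. For the proliferation score 1332 probe sets passed, against 737 without a filter, 295 at the 75th percentile, 158 with the step, 143 with the spline, 4 and 77 within the lower and higher numbers, 313 on ranks and 820 (animal 38) to 1760 without 1 animal, with 883 without animal 43. The slope of Psme1 on that score was -0.41 with its probe sets averaged and -1.39 at the 75th percentile, where the score held fewer genes. Some of these settings also held fewer probe sets or animals. The causes of these changes were not tested. The median r between members was 0.16 to 0.25 under other scalings and with animal numbers removed, and 0.21 to 0.27 without 1 animal. Leaving out 1 animal gave r of -0.038 (animal 43) to 0.446 for Psmb10 and B2m. No paired analysis was possible because the animals form 1 group. Dim probe sets, such as that of Tap2, had no test.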
